A study of Mus musculus with 10 samples.

Results

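Toll-like receptors (Tlr1 to Tlr9) and their adaptor Myd88 were examined in inflamed colon of mice with and without a transfer of cells treated by extracorporeal photopheresis (ECP). The 10 genes were chosen by symbol, and all 10 were measured, each by a single probe set, among 19505 named genes. Both groups were wild-type C57BL/6 mice with checkpoint-inhibitor colitis, brought about by water with 3% DSS (dextran sulfate sodium, which injures the epithelium) and by an intraperitoneal antibody against PD1. The ECP group (5 arrays) also received donor cells treated by ECP, in which white blood cells are exposed outside the body to a photosensitiser and ultraviolet A light, and the control group (5 arrays) did not. The labels used here give neither age nor sex, and whether a mouse gave 1 array or more is not said, so the p-values reflect array-to-array spread, which may be technical. Values are log2 RMA intensities from a gene-level array on RNA of complete colon tissue. All differences are ECP minus control on that log2 scale.

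Toll-like receptors recognise conserved microbial molecules. Tlr1, Tlr2, Tlr4, Tlr5 and Tlr6 sit at the cell surface and bind bacterial lipopeptides, lipopolysaccharide or flagellin, whereas Tlr3, Tlr7, Tlr8 and Tlr9 sit in endosomes and bind nucleic acids. On ligand binding the receptors recruit adaptors through their TIR domains. Myd88 serves the receptors of both sites except Tlr3, which signals through the adaptor TRIF (gene Ticam1), and the cascade ends in NF-kappaB and interferon regulatory factors. In the colon these receptors lie on epithelial cells, macrophages, dendritic cells, B cells and stromal cells that face the microbiota.

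The promoters below belong to the 3 members with the largest differences (Tlr5, Tlr2 and Tlr1) and to Tlr8 and Tlr9, endosomal receptors whose windows share a searched motif with that of Tlr1. Each sequence holds the 250 bases before a gene start, from RefSeq on GRCm38.p6. Tlr5 is at chr1:182954538-182954787 (plus strand), Tlr2 at chr3:83841609-83841858 (minus strand), Tlr1 at chr5:64933559-64933808 (minus strand), Tlr8 at chrX:167264330-167264579 (minus strand) and Tlr9 at chr9:106222348-106222597 (plus strand). Capitals mark matches, on either strand, to a kappaB-like motif (GGGANNNNCC) or to the purine-rich box GAGGAA.
Tlr5: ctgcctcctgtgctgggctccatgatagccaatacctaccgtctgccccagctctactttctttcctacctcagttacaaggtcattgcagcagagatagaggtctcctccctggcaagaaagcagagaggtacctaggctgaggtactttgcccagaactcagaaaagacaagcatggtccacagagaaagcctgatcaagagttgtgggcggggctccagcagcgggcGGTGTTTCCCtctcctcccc
Tlr2: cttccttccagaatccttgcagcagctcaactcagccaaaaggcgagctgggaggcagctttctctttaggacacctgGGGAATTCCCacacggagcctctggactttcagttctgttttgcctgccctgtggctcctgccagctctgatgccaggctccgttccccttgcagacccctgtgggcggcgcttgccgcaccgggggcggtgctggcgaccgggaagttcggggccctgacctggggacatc
Tlr1: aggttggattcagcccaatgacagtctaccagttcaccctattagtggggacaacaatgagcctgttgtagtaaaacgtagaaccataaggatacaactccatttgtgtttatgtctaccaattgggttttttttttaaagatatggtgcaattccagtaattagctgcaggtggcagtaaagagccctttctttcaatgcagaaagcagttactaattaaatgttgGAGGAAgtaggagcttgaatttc
Tlr8: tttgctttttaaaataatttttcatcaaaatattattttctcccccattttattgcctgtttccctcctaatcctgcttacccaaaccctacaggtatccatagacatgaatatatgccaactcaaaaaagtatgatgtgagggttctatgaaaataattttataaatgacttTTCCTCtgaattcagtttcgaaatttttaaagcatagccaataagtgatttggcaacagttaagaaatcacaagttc
Tlr9: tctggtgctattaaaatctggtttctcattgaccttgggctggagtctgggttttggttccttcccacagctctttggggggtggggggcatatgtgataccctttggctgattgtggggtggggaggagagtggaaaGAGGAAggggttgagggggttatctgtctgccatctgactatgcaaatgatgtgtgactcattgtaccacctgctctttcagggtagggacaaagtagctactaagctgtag
The kappaB-like motif was found in Tlr5 (at position -20 from the start), Tlr2 (at -172) and Tlr3, and it is present in 17.63% of all 32851 RefSeq promoter windows of the same length. The purine-rich box was found in the printed windows of Tlr1, Tlr8 and Tlr9 and in 23.25% of all windows. The last motif, GAAANNGAAA, the core of interferon response elements, was found in Tlr6, as a pair of overlapping matches, and Myd88, against 2.98% of all windows. In all, 8 of the 10 members had a promoter entry. Tlr1 and Tlr6 also had a second window each, in which these letters were not found. These matches describe letters, not binding. Tlr1 and Tlr6 are direct neighbours on chromosome 5, as are Tlr7 and Tlr8 on chromosome X, in the same assembly.

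The 3 members with the largest differences were surface receptors, all higher in the ECP arrays, but no member passed the threshold. Tlr5 was 1.31-fold higher, Tlr2 1.22-fold and Tlr1 1.19-fold (n = 5 each), and these 3, but none of the other 7 members, had an unadjusted limma p under 0.05. Across all 19505 genes, 0 had an adjusted p under 0.05 (0% called), 991 had an unadjusted limma p under 0.05, and of these 450 were higher in ECP (2.31% of genes) and 541 lower (2.77%). The differences of Tlr4, Tlr6, all 4 endosomal receptors and Myd88 had confidence intervals that include 0.

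Tlr5, the receptor for bacterial flagellin, was at 6.70, 6.43, 6.64, 6.90 and 6.72 in ECP replicates 1 to 5, against 6.21, 6.07, 6.48, 6.22 and 6.47 in control replicates 1 to 5. Of the ECP arrays 4 lay above every control array, and ECP replicate 2 lay between the controls. The group levels were 6.68 ± 0.17 in ECP and 6.29 ± 0.18 in control arrays (SD, n = 5 each), a difference of 0.39 with SE 0.10 and a 95% confidence interval of 0.17 to 0.62 (limma adjusted p = 0.471).

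Tlr2, which pairs with Tlr1 or Tlr6 to bind bacterial lipopeptides, was at 9.77, 9.49, 9.55, 9.52 and 9.90 in ECP replicates 1 to 5, against 9.22, 9.34, 9.33, 9.42 and 9.49 in control replicates 1 to 5. The groups met at their edges, since the lowest ECP array and the highest control array were both at 9.49. The group levels were 9.65 ± 0.18 in ECP and 9.36 ± 0.10 in control arrays (SD, n = 5 each), a difference of 0.29 with SE 0.09 and an interval of 0.09 to 0.49 (limma adjusted p = 0.700).

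Tlr1, the partner of Tlr2 for triacylated lipopeptides, was at 9.55, 9.50, 9.44, 9.58 and 9.42 in ECP replicates 1 to 5, against 9.07, 9.27, 9.20, 9.46 and 9.27 in control replicates 1 to 5. Control replicate 4 was the single control array inside the ECP range. The group levels were 9.50 ± 0.07 in ECP and 9.25 ± 0.14 in control arrays (SD, n = 5 each), a difference of 0.25 with SE 0.08 and an interval of 0.08 to 0.41 (limma adjusted p = 0.700). With all 10 arrays the ranges of the groups overlapped for each of the 10 members, against 0.390% of all genes with every ECP array above every control array and 0.831% with every ECP array below.

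Tlr4, the receptor for lipopolysaccharide, showed no such difference. It was at 9.23, 9.20, 9.32, 9.14 and 9.12 in ECP replicates 1 to 5, against 9.20, 9.32, 9.06, 9.51 and 9.09 in control replicates 1 to 5. The highest of all arrays was control replicate 4, and the ECP arrays lay inside the control range. The difference was -0.04 (SE 0.09, interval -0.23 to 0.16, limma adjusted p = 1.000), and it turned to 0.03 without control replicate 4. Its partners Cd14, which hands lipopolysaccharide to the receptor, and Ly96 (MD-2), its binding subunit, were added after their values had been seen. Cd14 was at 8.85 ± 0.08 in ECP and 8.93 ± 0.29 in control arrays, and Ly96 at 8.35 ± 0.17 in ECP and 8.27 ± 0.33 in control arrays (SD, n = 5 each). Both directions turned without control replicates 1 and 4, to 0.059 for Cd14 and -0.054 for Ly96, and that of Ly96 also without control replicate 1 alone (-0.05).

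Tlr6, the other partner of Tlr2, was at 5.06, 4.43, 4.70, 4.15 and 4.49 in ECP replicates 1 to 5, against 4.59, 4.69, 4.55, 4.97 and 4.50 in control replicates 1 to 5. ECP replicates 1 and 4 marked both ends of the range over all arrays. The difference was -0.09 (SE 0.15, interval -0.43 to 0.24, limma adjusted p = 0.998), and it turned to 0.01 without ECP replicate 4. Tlr1 and Tlr6 are close paralogues, and how far their probes share signal was not tested.

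**Figure D1:**
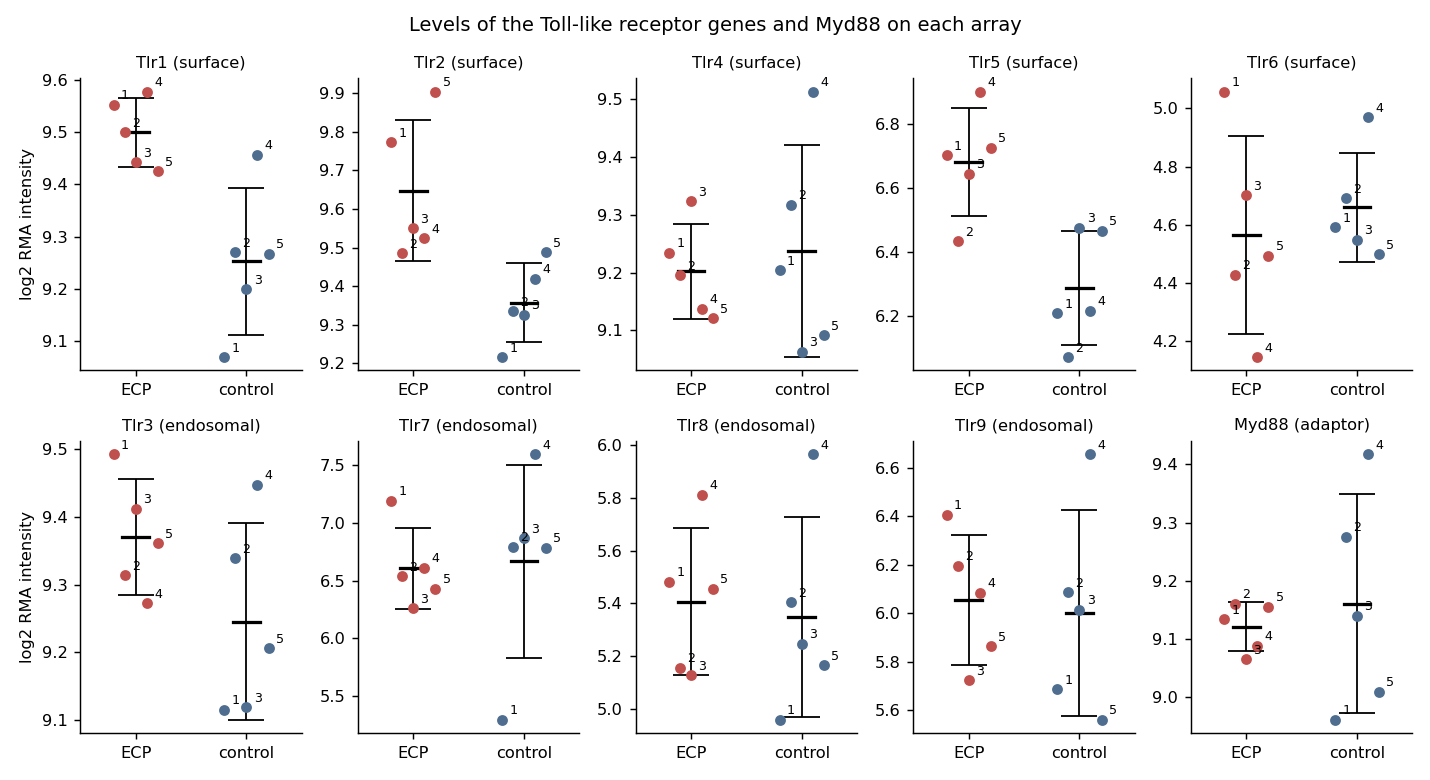
Log2 RMA intensity (vertical axis, scaled per gene) of each member on the 5 ECP arrays (red, left) and the 5 control arrays (blue, right); numbers are replicates, bars mean and SD. In Tlr1, Tlr2 and Tlr5 the ECP arrays sit mostly above the controls, while in Tlr7, Tlr8, Tlr9, Tlr4 and Myd88 control replicate 4 is the highest array.

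Among the endosomal receptors, Tlr3, which binds double-stranded RNA, had the largest difference in size. It was at 9.49, 9.31, 9.41, 9.27 and 9.36 in ECP replicates 1 to 5, against 9.11, 9.34, 9.12, 9.45 and 9.21 in control replicates 1 to 5. Every ECP array lay above the control mean, and control replicates 2 and 4 lay within the ECP range. The difference was 0.13 (SE 0.08, interval -0.05 to 0.30, limma adjusted p = 0.998).

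Tlr7, a sensor of single-stranded RNA, varied most of the members. It was at 7.19, 6.54, 6.26, 6.61 and 6.43 in ECP replicates 1 to 5, against 5.30, 6.79, 6.87, 7.60 and 6.79 in control replicates 1 to 5. Control replicates 1 and 4 held the lowest and the highest value, 2.30 apart, and all ECP arrays lay between them. The difference was -0.06 with an interval of -0.80 to 0.68 (limma adjusted p = 1.000). It was -0.40 without control replicate 1 (limma adjusted p = 0.915) and turned to 0.17 without control replicate 4 and to 0.03 without ECP replicate 3.

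Tlr8, the neighbour and paralogue of Tlr7, was at 5.48, 5.16, 5.13, 5.81 and 5.46 in ECP replicates 1 to 5, against 4.96, 5.41, 5.25, 5.97 and 5.17 in control replicates 1 to 5. Control replicates 1 and 4 were again the lowest and the highest arrays. The difference was 0.06 (SE 0.18, interval -0.34 to 0.46, limma adjusted p = 1.000). It was -0.04 without control replicate 1 or ECP replicate 4, and 0.21 without control replicate 4.

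Tlr9, the receptor for unmethylated CpG DNA, was at 6.40, 6.20, 5.72, 6.08 and 5.86 in ECP replicates 1 to 5, against 5.69, 6.09, 6.01, 6.65 and 5.56 in control replicates 1 to 5. Control replicate 4 was the highest array and control replicate 5 the lowest. The difference was 0.05 (SE 0.19, interval -0.37 to 0.47, limma adjusted p = 1.000). It was 0.22 when control replicate 4 was left out. Its direction turned on leaving out control replicate 5 (-0.06), ECP replicate 1 (-0.03) or control replicate 1 (-0.02).

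Myd88 was at 9.13, 9.16, 9.07, 9.09 and 9.16 in ECP replicates 1 to 5, against 8.96, 9.28, 9.14, 9.42 and 9.01 in control replicates 1 to 5. The ECP arrays lay close together inside a wider control range, with an SD of 0.04 in ECP and 0.19 in control arrays. Control replicates 4 and 1 marked its ends, as they did for Tlr7 and Tlr8. The difference was -0.04 (SE 0.09, interval -0.23 to 0.15, limma adjusted p = 1.000), and it turned to 0.02 without control replicate 4.

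**Figure D2:**
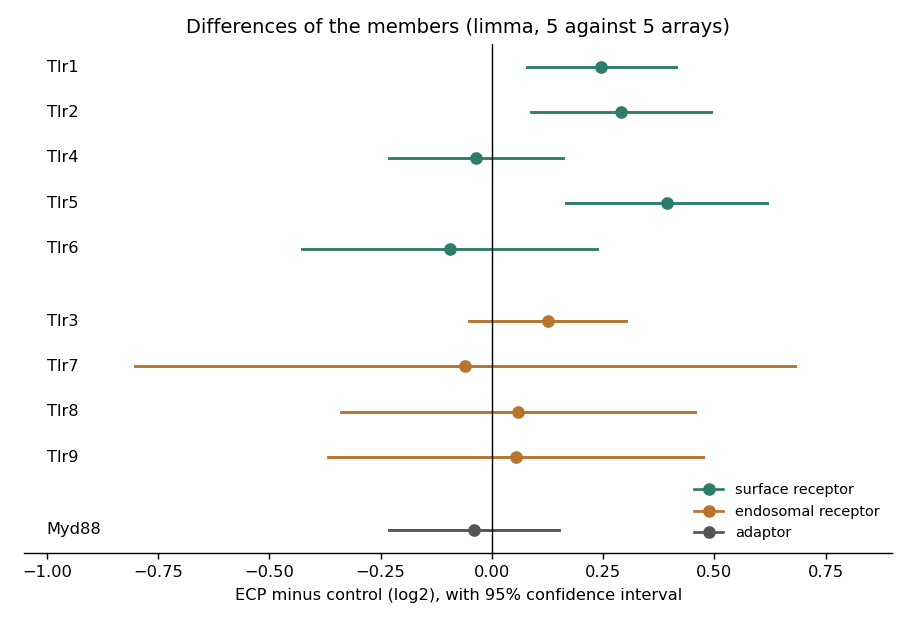
Difference between ECP and control arrays on the log2 scale (horizontal axis) for each member, with 95% confidence intervals from limma; colours mark surface receptors, endosomal receptors and the adaptor. The intervals of Tlr1, Tlr2 and Tlr5 lie above 0, and the widest, that of Tlr7, runs from -0.80 to 0.68.

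Set side by side, the 5 surface receptors had a median difference of 0.25 and a mean of 0.16, and the 4 endosomal receptors a median of 0.06 and a mean of 0.04, against a median of 0.01 over all genes. In the surface set 3 of 5 were higher and 2 lower, and in the endosomal set 3 of 4 were higher and 1 lower, against 53.3% of all genes higher. The mean over the surface receptors was at 8.06, 7.81, 7.93, 7.86 and 7.93 in ECP replicates 1 to 5, against 7.66, 7.74, 7.72, 7.92 and 7.76 in control replicates 1 to 5. Control replicate 4 was the single control array above the lowest ECP array. The mean over the endosomal receptors was at 7.14, 6.80, 6.63, 6.95 and 6.78 in ECP replicates 1 to 5, against 6.26, 6.91, 6.81, 7.42 and 6.68 in control replicates 1 to 5, where the ECP arrays lay inside the control range. These means are no measure of which set is expressed more, since probe sets differ in brightness. The surface mean difference exceeded the endosomal by 0.12. Without control replicate 4 that gap was 0.0042, since the surface mean difference was then 0.20 and the endosomal 0.19. Without control replicate 1 the gap was 0.23, with an endosomal mean difference of -0.09. Without control replicates 1 and 4 together the surface mean difference was 0.18 and the endosomal 0.06. Without control replicate 5 as well they were 0.19 and 0.0006. No test was made of the gap, since the members were chosen with earlier results known.

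**Figure D3:**
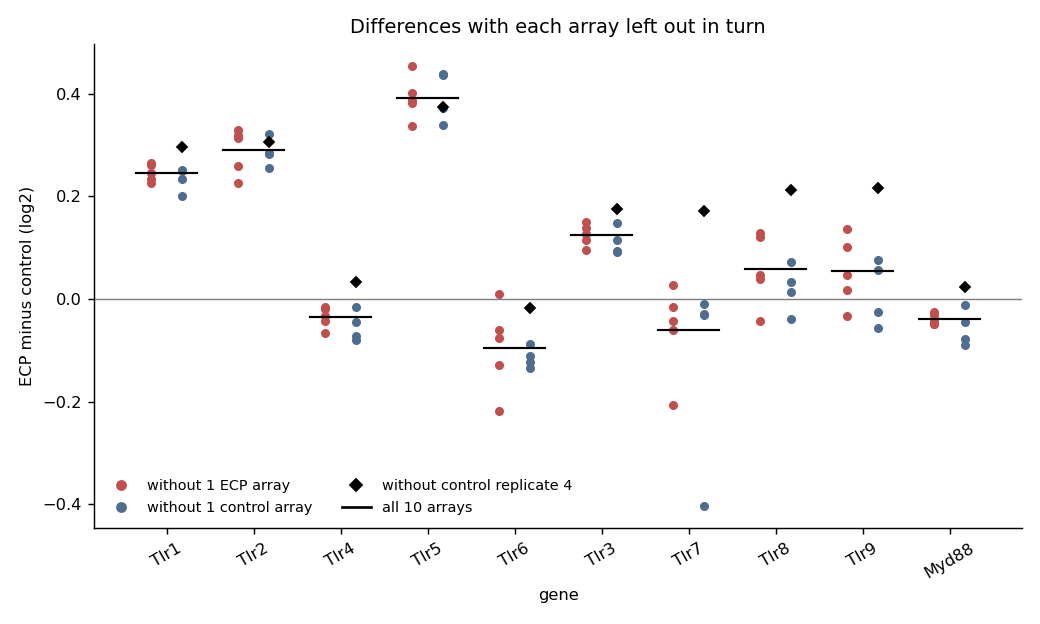
Difference between ECP and control arrays (log2, vertical axis) for each member with all 10 arrays (black lines) and with 1 ECP array (red) or 1 control array (blue) left out; diamonds mark the fit without control replicate 4. Tlr1, Tlr2, Tlr5 and Tlr3 stay above 0 in every fit, and the other members cross 0.

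Cell-type markers moved with part of these profiles. Colon epithelium markers had a mean level of 12.24 to 12.33 in ECP and 12.06 to 12.36 in control arrays and smooth muscle markers 10.44 to 10.98 in ECP and 9.82 to 10.73 in control arrays, as complete colon tissue would give. Pancreatic acinar markers, foreign to colon, were at 5.47 to 5.73 in ECP arrays, against 10.72, 5.80, 5.62, 12.55 and 6.74 in control replicates 1 to 5. Control replicate 4, the highest array for Tlr4, Tlr7, Tlr8, Tlr9 and Myd88, also stood highest in B cell markers. All 7 measured B cell markers gave a mean level of 5.96 to 7.06 in ECP arrays, against 8.56 in control replicate 4 and 6.08 to 6.28 in the other controls. The 9 measured neutrophil markers were at 6.39 to 6.92 in ECP and 5.87 to 7.89 in control arrays, again highest in control replicate 4. In bulk tissue, fewer cells of a type and less RNA per cell cannot be told apart.

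Monocyte and macrophage markers (9 measured of 10) were at 8.16, 7.63, 7.44, 7.75 and 7.59 in ECP replicates 1 to 5, against 7.11, 7.71, 7.66, 7.96 and 7.38 in control replicates 1 to 5. Control replicate 1, lowest in Tlr7 and Tlr8, was also lowest here, and ECP replicate 1, the highest ECP array for Tlr7 and Tlr9, was highest. Adgre1, a gene of mature macrophages, was at 6.82 to 7.77 in ECP and 6.26 to 7.36 in control arrays, and the growth factor receptor gene Csf1r at 8.41 to 9.22 in ECP and 7.88 to 9.23 in control arrays. Among 6 markers of plasmacytoid dendritic cells, which carry Tlr7 and Tlr9, Siglech was at 5.47 to 5.76 in ECP and 5.50 to 5.76 in control arrays. The less specific markers Bst2, Tcf4 and Klk1, chosen after their values were seen, were brighter, with means of 8.19, 10.53 and 12.77 in ECP and 8.21, 10.59 and 12.74 in control arrays. The part of these cells in the levels of Tlr7, Tlr8, Tlr9 and Myd88 was not tested. Beside Tlr1, Tlr2 and Tlr5, all 6 adipocyte markers were higher in ECP, with a mean level of 6.85, 5.89, 6.78, 6.90 and 6.95 in ECP replicates 1 to 5, against 6.28, 6.46, 6.39, 6.53 and 5.42 in control replicates 1 to 5. Of the ECP arrays 4 lay above every control array, and ECP replicate 2, the lowest ECP array in Tlr2 and Tlr5, lay below 4 of the controls. The mean difference of these markers was 0.46, the highest of the marker lists, and 0.26 without control replicate 5. Each of the 7 smooth muscle markers was higher in ECP as well, by 0.21 (Acta2) to 0.49 (Actg2), with a mean difference of 0.33. Control replicates 1 and 4, at a mean of 9.82 and 10.16 for these markers, lay under every ECP array. Control replicates 2, 3 and 5, at 10.61 to 10.73, lay inside the ECP range. The part of fat and smooth muscle in the differences of the 3 receptors was not tested. For Tlr1, Tlr2 and Tlr5 the differences without control replicates 1 and 4 were 0.25, 0.26 and 0.34, against 0.25, 0.29 and 0.39 with all arrays.

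Brightness limits some members. Across 19 genes of other organs (photoreceptor, germ cell, pituitary, hypothalamic, enamel and lens genes) the gene means over all arrays ran from 3.77 to 6.83. The means of Tlr5, Tlr6, Tlr7, Tlr8 and Tlr9 fall within that range, so that their signal cannot be told from background by brightness alone, whereas Tlr1, Tlr2, Tlr3, Tlr4 and Myd88 lie above it. The upper end rests on Prm2, a sperm protamine gene named after its values were seen. Without it the range ends at 6.21, and Tlr5 (mean 6.48) and Tlr7 (6.64) lie above it too, which leaves Tlr6, Tlr8 and Tlr9 within. For Tlr5 that mean joins 6.68 in ECP and 6.29 in control arrays. Its control replicates 1 to 5 were at 6.21, 6.07, 6.48, 6.22 and 6.47, partly at or under that end. Tlr7 and Tlr8 are X-linked, and the 3 measured Y-linked genes were at 3.17 to 3.98 on all 10 arrays.

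**Figure D4:**
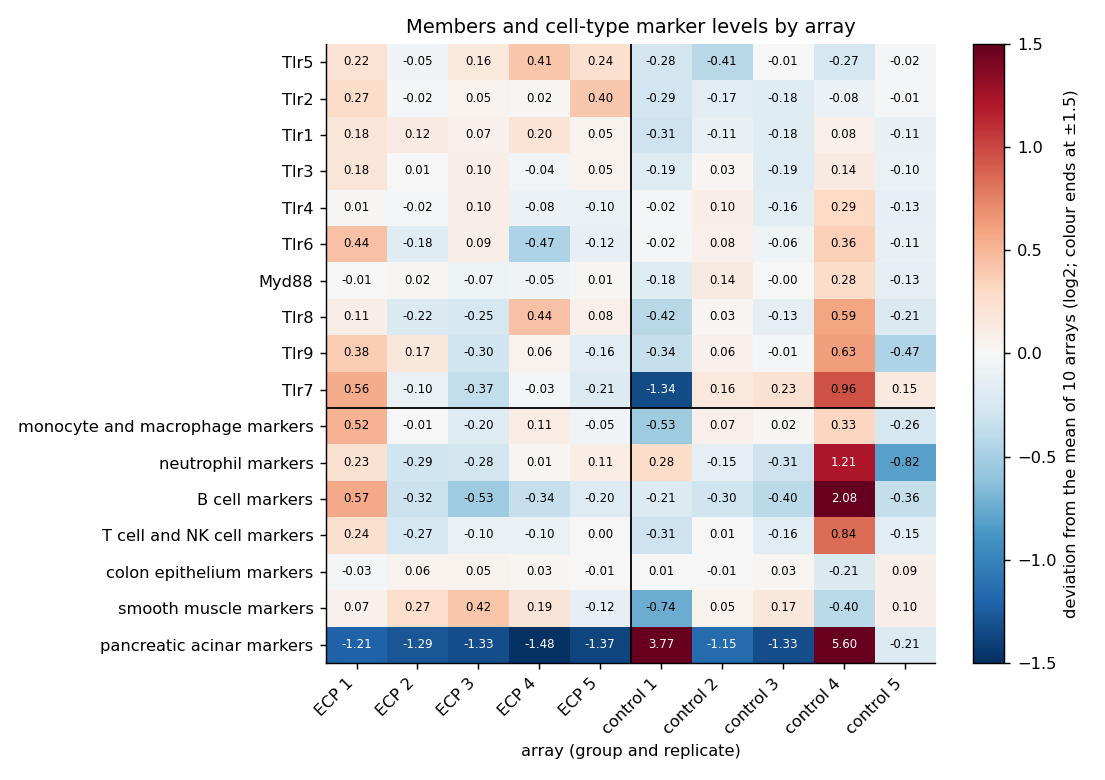
Deviation of each member (upper block) and of mean marker levels (lower block) from the mean of the 10 arrays on the log2 scale; columns are arrays, ECP on the left, and the colour ends at ±1.5 while the printed numbers do not. Control replicate 4 is red for Tlr7, Tlr8 and Tlr9 and for B cell, T cell and neutrophil markers, and control replicate 1 is blue for Tlr7 and for macrophage and smooth muscle markers.

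The rest of the pathway gave no gene past the threshold in any of the 7 lists (0 of 66 measured genes with an adjusted limma p under 0.05, and 5 with an unadjusted p under 0.05, against 5.08% of all genes). The 3 further mouse receptors, Tlr11, Tlr12 and Tlr13, were all higher, with differences of 0.03 to 0.13. Tlr12, a sensor of profilin in mice, differed by 0.13 (SE 0.10), and Tlr13, a sensor of bacterial ribosomal RNA, by 0.12 (SE 0.31). Tlr13 turned to -0.09 without ECP replicate 1, the array in which it was highest (7.21), and to -0.10 without control replicate 5, in which it was lowest (5.36).

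Among 13 ligand-binding partners and trafficking factors 9 were higher and 4 lower, with a median difference of 0.03, or -0.051 without ECP replicate 1. The endoplasmic reticulum chaperone gene Hsp90b1 (gp96), needed for folding of most of these receptors, differed by 0.12 (SE 0.07), and Lgmn, a protease that can cleave endosomal receptors, by 0.16 (SE 0.10). Lower were Hmgb1, a nuclear protein that can act as a danger signal, at -0.08 (SE 0.06), and the receptor chaperone gene Cnpy3 at -0.07 (SE 0.07). All 4 had limma adjusted p-values of 0.998.

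Of the 5 other adaptors 4 were lower and 1 was higher, with a median of -0.03. Ticam2 (TRAM), which links Tlr4 to TRIF, differed by -0.15 (SE 0.10), or -0.082 without ECP replicate 4, Tirap, the bridge from Tlr2 and Tlr4 to Myd88, by -0.03 (SE 0.06) and Ticam1 by 0.0021 (SE 0.08). The directions of Tirap and Ticam1 turned when single arrays were left out. Of the 13 measured kinases and ubiquitin enzymes 8 were higher and 5 lower, with a median of 0.05 and with differences from -0.07 to 0.17. Tab1, a partner of the kinase TAK1, was at 7.88 to 8.12 in ECP and 7.75 to 7.94 in control arrays, overlapping in part (difference 0.17, SE 0.07, limma adjusted p = 0.939). Ikbkg (NEMO), a scaffold of the IKK complex, differed by 0.12 (SE 0.11), and by 0.033 without ECP replicate 4. The ubiquitin ligase gene Traf6 differed by -0.07 (SE 0.08), and by -0.0064 without control replicate 2. The kinase gene Ikbkb differed by -0.05 (SE 0.06), and by -0.027 without ECP replicate 2.

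Transcription factors of the pathway ran in both directions. Irf7, an interferon regulatory factor that endosomal receptors activate, was at 9.83, 9.43, 9.73, 9.75 and 9.36 in ECP replicates 1 to 5, against 8.77, 9.13, 9.37, 9.03 and 9.61 in control replicates 1 to 5. Control replicate 5 and, by a narrow margin, control replicate 3 lay inside the ECP range (difference 0.44, SE 0.15, limma adjusted p = 0.800), and the difference was 0.25 without control replicates 1 and 4. Nfkb2, a subunit of the alternative NF-kappaB pathway, was at 7.83 to 8.02 in ECP and 8.01 to 8.30 in control arrays, with ECP lower by a log2 difference of -0.20 (limma adjusted p = 0.903, SE 0.08). Leaving out control replicates 1 and 4 gave -0.10. Rel, another NF-kappaB subunit, differed by -0.31 (SE 0.17), with control replicate 4 highest at 10.09, and by -0.16 without that array. The other 4 measured factors were lower by 0.05 or less.

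Among 12 inhibitors of the pathway 5 were higher and 7 lower, with a median of -0.01. Atf3, a transcription factor that restrains cytokine genes, was at 8.47, 9.20, 9.06, 8.82 and 9.07 in ECP replicates 1 to 5, against 9.28, 9.58, 9.22, 9.03 and 9.46 in control replicates 1 to 5. The lowest control array, replicate 4, was the only one inside the ECP range (difference -0.39, SE 0.14, limma adjusted p = 0.862). Irak3 (IRAK-M), which blocks Myd88 signalling in macrophages, differed by 0.17 (SE 0.13), or 0.30 without control replicate 4 and 0.08 without control replicate 1. Sigirr, a receptor that inhibits the pathway, differed by 0.05 (SE 0.06) and the cytokine-signalling inhibitor gene Socs1 by -0.18 (SE 0.23). Single control arrays moved Socs1, to -0.031 without replicate 4, -0.050 without replicate 2 and -0.38 without replicate 3.

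The 13 measured target genes had a median difference of 0.44, with 10 higher and 3 lower. That median was 0.20 on leaving out control replicate 5, below the 0.25 of the surface receptors with all arrays, and 0.74 on leaving out control replicate 4. Ptgs2, the inducible cyclooxygenase, was at 8.44, 8.64, 8.41, 9.51 and 9.08 in ECP replicates 1 to 5, against 7.73, 8.12, 8.07, 8.85 and 7.55 in control replicates 1 to 5. Control replicate 4 was the single control array inside the ECP range (difference 0.75, SE 0.26, limma adjusted p = 0.807). Il1a, an alarmin cytokine gene, differed by 0.83 (SE 0.39, limma adjusted p = 0.988), with 1.21 on leaving out control replicate 4 and 0.56 on leaving out control replicate 5. Ifnb1, the interferon that Tlr3 and Tlr4 induce, differed by -0.07 (SE 0.11), or -0.015 without ECP replicate 4, and Nfkbiz, an NF-kappaB cofactor gene, by -0.06 (SE 0.12), or 0.039 without control replicate 2. The mean over the targets was 7.38 to 7.98 in ECP and 6.40 to 8.22 in control arrays, with control replicates 5 and 4 at the ends.

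**Figure D5:**
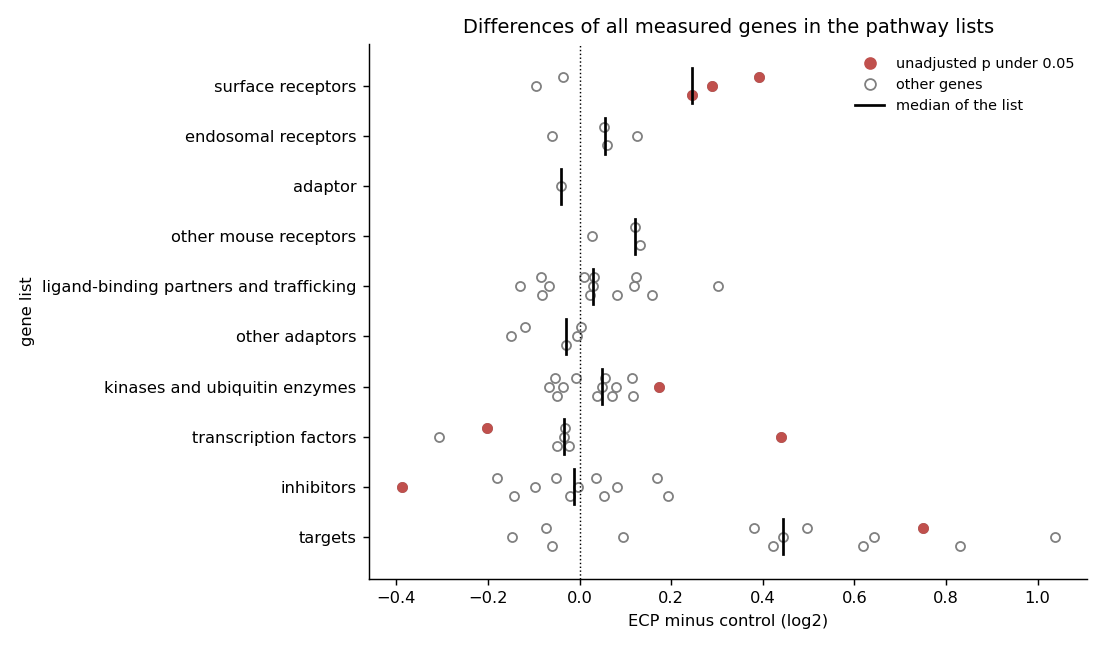
Difference between ECP and control arrays (log2, horizontal axis) for every measured gene of the member sets and pathway lists; filled red points have an unadjusted limma p under 0.05, and black bars are list medians. The medians lie at 0.25 for surface receptors, 0.06 for endosomal receptors and 0.44 for targets, and between -0.04 and 0.12 for the other sets; that of the targets was 0.20 without control replicate 5.

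Profiles over the arrays were compared between members of both sites. After removal of the group means, Tlr1 followed Tlr7 (Pearson r = 0.882 over 10 arrays) and Tlr8 (0.849), and Tlr9 followed Myd88 (0.840), whereas Tlr5 ran at 0.292 or lower with every other member. These values, from 45 pairs, describe arrays that share control replicates 1 and 4 as extremes, and they carry no test. The genes with profiles most like each member were taken as the 2 with the highest Pearson r of deviations from the group means, over the 10 arrays and all 19505 genes, a choice that makes high values certain. Such an r leaves out the difference between groups, and Calhm2 and Cdkn2c differed by -0.14 and -0.04, where Tlr1 and Tlr5 differed by 0.25 and 0.39. They are given in the next sentences without a test.

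Tlr5 was most like Cdkn2c, an inhibitor of cyclin-dependent kinases (r = 0.987), and Fam118a (0.947). Tlr1 was most like the channel gene Calhm2 (0.989) and the nuclear pore gene Nup98 (0.968). Tlr2 was most like Vmn2r59 (0.928), a vomeronasal receptor gene, and Olfr809 (0.913), an olfactory receptor gene, both at mean levels of 3.65 to 3.75, under the lowest gene mean among the genes of other organs (3.77). Tlr4 was most like the mitochondrial folate enzyme gene Mthfd2 (0.957) and Gdap10 (0.945), and Tlr6 like the dendritic cell chemokine receptor gene Xcr1 (0.967) and the proteasome activator gene Psme1 (0.937). Tlr3 was most like Gm10406 (0.961) and the lipid droplet gene Ldah (0.952). Tlr7 was most like the zinc finger gene Zbtb1 (0.984) and Emp3 (0.980), and Tlr8 like Smim1 (0.967) and the sphingosine phosphate transporter gene Spns2 (0.962). Tlr9 was most like the lysosomal cathepsin gene Ctsz (0.973) and Igsf6 (0.972), and Myd88 like Qsox2 (0.957) and the phosphodiesterase gene Pde7b (0.953). Without the 2 arrays farthest from each member's median these values were lower except that of Smim1, and lay between 0.809 for Psme1 and 0.981 for Cdkn2c and Smim1. Spearman's rho over the 10 arrays ran from 0.891 for Igsf6 to 1.00 for Cdkn2c.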

How the data were processed

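The deposited values are log2 probe set intensities. Per the submitters' processing notes the authors used RMA in oligo, with versions and options not given in the sources used here. RMA by its definition brings arrays to a common distribution, which hides any shift of most genes in 1 direction. The table held 22203 probe sets on 10 arrays, of which 19572 had a gene symbol in the platform annotation and matched RefSeq, and array medians lay between 6.94 and 6.98. Where a gene had several probe sets (55 genes, no member) the one with the highest mean was kept. No detection calls were used, and the number of arrays limits the precision.

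Groups and replicate numbers came from the sample titles. Differences were fitted over all genes with limma 3.58.1 in R 4.3.3 (lmFit, eBayes, two-sided, no covariate). Benjamini-Hochberg adjustment ran over 19505 genes with a threshold of 0.05, after a test on simulated data. In that test values were drawn independently for each gene and array, with 100 genes changed by 0.5 and 100 by 1. Of these 59% and 99% were called, with 6 false calls. The real arrays share control replicates 1 and 4 as extremes, which the simulation leaves out. The shares called there need not hold for a member. The differences of all members were smaller than 0.5, a size that was not simulated. Figures and list levels were made in Python 3.11.15. The members and all lists, from textbook knowledge, were chosen with earlier results of these data known, and the promoter motifs after the values had been seen. Named were all members, in each pathway list the 2 genes with the smallest unadjusted p in each direction, and the 2 genes most like each member. Alternatives were array scaling, filters on dim genes, probe set choice, variance options, array weights, the replicate number as a block, and leaving out arrays.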

Additional observations from a re-analysis of the deposited data

Results flagged for a closer look

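Single arrays stood off from the other 4 of their group in 8 of 118 cases examined (Dixon's ratio over 0.71), where chance gives about 5%, or 6 cases. None of the 10 members was among them. Control replicate 4 was high in the mean level of B cell markers (8.56, next 6.28), of T and NK cell markers (6.68, next 5.85) and of plasmacytoid dendritic cell markers (8.44, next 7.94). In that last list the gap lay mostly in Spib, which B cells also express and which was named after its values were seen, at 8.12 on that array and 5.15 to 5.74 on the other controls, while Siglech was at 5.66. That array was also highest in the mean of the 3 measured Y-linked transcripts (3.70, next 3.59 among the controls). Single values of these genes were 3.17 to 3.98 over all arrays. The gene means of other organs start at 3.77, so these levels cannot be told from background by brightness. Control replicate 2 was high in the ubiquitin ligase gene Traf6 (8.88, next 8.61), and ECP replicate 1 in the mean of the other adaptors (7.11, next 6.87). Adipocyte markers were low in ECP replicate 2 (5.89, next 6.78) and in control replicate 5 (5.42, next 6.28).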

How the results depend on the processing

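Over 21 alternatives no member was called, with limma adjusted p-values of 0.331 or higher. Tlr1, Tlr2, Tlr3 and Tlr5 kept their direction in each fit that held them. Tlr5 was not in the fit without genes below the median level. Filters on dim genes, probe set choice, variance options and the replicate block could not change a member's difference, only its SE and p-value. Direction was thus open to change only under array scaling, array weights and leaving out arrays. Leaving out 1 array in turn gave 0.20 to 0.30 for Tlr1, 0.23 to 0.33 for Tlr2, 0.34 to 0.45 for Tlr5, -0.079 to 0.033 for Tlr4, -0.22 to 0.01 for Tlr6, -0.40 to 0.17 for Tlr7, -0.043 to 0.21 for Tlr8, -0.056 to 0.22 for Tlr9, -0.090 to 0.024 for Myd88, -0.10 to 0.32 for Tlr13, -0.051 to 0.064 for Ticam1, -0.055 to 0.0079 for Tirap, -0.14 to 0.039 for Nfkbiz and -0.052 to 0.16 for Ly96. The surface mean ran from 0.12 to 0.20 and the endosomal mean from -0.09 to 0.19. The count of 0 genes called over all genes became 1 without the lowest quartile, 7 without genes below the median, 1 with trend and robust options, and 0 to 1 when 1 array was left out (1 without control replicate 3). The filters changed the number of genes adjusted over and also the SEs. For Tlr1 the SE was 0.0765 with all genes, 0.0744 without the lowest quartile and 0.0712 without genes below the median. The cause of the changed counts was not tested. Array weights turned Tlr4 to 0.0095, and median centring turned Ticam1 to -0.0037. Without control replicates 1 and 4 together Tlr4 was at 0.045, Ticam1 at -0.026, Socs1 at 0.044, Nfkbiz at 0.010, Cd14 at 0.059 and Ly96 at -0.054. Without control replicate 5 as well, Tlr4 was at 0.012, Tlr13 at -0.15 and Ly96 at -0.17. The cause was not tested. Deviations of same-numbered arrays correlated weakly (-0.24 to 0.08), which does not settle whether the replicate numbers pair the samples. With the replicate block 0 genes were called, and Tlr5 was at 0.39 (limma adjusted p = 0.643). The medians of the pathway lists with single arrays left out, and the brightness range without Prm2, were added after seeing the data. The filter on the lowest quartile left no value for Tlr6, and the filter below the median none for Tlr5 to Tlr9.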
